A study of Mus musculus with 12 samples.

Results

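Transcripts of 9 enzymes of hepatic methionine and one-carbon metabolism were followed across 12 mouse livers. Betaine-homocysteine methyltransferase (Bhmt), glycine N-methyltransferase (Gnmt), methionine adenosyltransferase 1A (Mat1a), adenosylhomocysteinase (Ahcy), cystathionine beta-synthase (Cbs), cystathionine gamma-lyase (Cth), phosphatidylethanolamine N-methyltransferase (Pemt), serine hydroxymethyltransferase 1 (Shmt1) and nicotinamide N-methyltransferase (Nnmt) were taken by symbol. All 9 were present in both deposited count tables, among 20093 genes that the tables share, and all 9 passed the filter on low counts in every comparison.

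The mice were C57BL/6N males aged 4 to 6 months that carried floxed Elavl1 alleles (HuR flox/flox), so the floxed allele was common to all groups. Elavl1 encodes human antigen R (HuR), an RNA-binding protein of AU-rich transcripts. Per the labels, HuRHep-/- mice had received AAV8-Tbg-Cre, a viral vector in which a thyroxine-binding globulin promoter drives Cre in hepatocytes. WT controls had, also per the labels, received AAV8-Tbg-null. The published methods describe a cross with Alb-Cre mice, for experiments on younger mice, and do not separately say how the sequenced mice were made. Livers were collected on normal chow or after 16 weeks of a high fat, cholesterol and fructose (HFCF) diet, which held 2% cholesterol and took 40% of its energy from fat and 20% from fructose. Each of the 4 groups (chow WT, chow HuRHep-/-, HFCF WT and HFCF HuRHep-/-) held 3 livers, and total counts ran from 30071731 to 35949203 per library. Levels are given as CPM (counts scaled to a common library size), and differences as log2 fold changes with their standard error (SE).

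In liver, Mat1a makes S-adenosylmethionine, the universal methyl donor, from methionine. Methyltransferases such as Gnmt, Pemt and Nnmt spend it and leave S-adenosylhomocysteine, which Ahcy cleaves to homocysteine. Homocysteine is either returned to methionine, by Bhmt with betaine or by methionine synthase (Mtr) with folate, or drawn off to cysteine by Cbs and Cth, while Shmt1 feeds one-carbon units into the cytosolic folate pool. Hepatocytes carry most of this pathway, and several of its enzymes are near-exclusive to them.

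The targeted gene went against its label. Elavl1 stood at 30.9, 29.3 and 31 CPM in chow WT livers and at 42.8, 39.2 and 38.8 CPM in livers labelled HuRHep-/-. On HFCF it stood at 23.9, 24.1 and 27.0 CPM in WT and at 32.4, 32.2 and 34.2 CPM in livers labelled HuRHep-/-. The groups did not overlap on either diet, and the log2 fold change was 0.41 ± 0.07 (SE) on chow (limma, Benjamini-Hochberg adjusted p = 0.0219) and 0.38 ± 0.07 on HFCF (adjusted p = 0.0327). With both diets in one model it was 0.40 (adjusted p = 0.00025), and this call held without any 1 of the 12 livers, at 0.37 to 0.43 (adjusted p at most 0.00104). Within a diet both calls were lost when single libraries were left out, namely any of chow WT 1 or 3 and chow HuRHep-/- 1 or 2 on chow (adjusted p from 0.0723 to 0.105), and any library but HFCF WT 3 on HFCF (0.0533 to 0.121). Counts over the whole gene do not separate a deleted exon from the rest, so every genotype direction below rests on the labels. Hepatocyte identity was clear: the 11 measured hepatocyte markers summed to between 66931 and 124690 CPM, with none at 0.

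Because HuR binds AU-rich stretches of 3′ untranslated regions (UTRs), the pentamer ATTTA was counted on the sense strand of each principal transcript of GENCODE M21 (GRCm38). It was found in 5 of the 9 enzymes: Cbs held 10, Ahcy 2, and Bhmt, Mat1a and Cth 1 each. Gnmt, Pemt, Shmt1 and Nnmt held 0, in 3′ UTRs of 136, 204, 1040 and 53 bases. Of 13293 tested genes with an annotated 3′ UTR, 66.64% held at least 1 ATTTA and 27.67% held the longer TATTTAT, which was in none of the 9. A match is a string of letters and not a shown binding site. The windows around the first match of Ahcy, which fell with genotype, of Bhmt, which differed by diet, and of Cth, which fell with diet, are shown with the pentamer in capitals, and lie in the 3′ UTR exon on the minus strand at chr2:155059765-155059793, chr13:93617278-93617306 and chr3:157894461-157894489.
Ahcy: tgtttatatgctATTTAgaatgttaacaa
Bhmt: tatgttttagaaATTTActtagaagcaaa
Cth: tacaatgttacaATTTAgtattgatgttt

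Promoter windows of 300 bases (250 before to 50 after the RefSeq start, GRCm38.p6) were on hand for 6 of the 9, and those of Bhmt and Gnmt are shown because the 2 transcripts moved in opposite directions with diet. The Bhmt window spans chr13:93637709-93638008 and the Gnmt window chr17:46729116-46729415, both on the minus strand. The RefSeq start lies 203 bases from the GENCODE gene start for Bhmt and 3 bases from it for Gnmt. Both strands were searched for 8 words, and capitals mark the matches. The nuclear receptor half-site was searched as AGGTCA. The CCAAT box was searched by its name. The other 6 words, which follow with their shares, gave no match in either window.
Bhmt: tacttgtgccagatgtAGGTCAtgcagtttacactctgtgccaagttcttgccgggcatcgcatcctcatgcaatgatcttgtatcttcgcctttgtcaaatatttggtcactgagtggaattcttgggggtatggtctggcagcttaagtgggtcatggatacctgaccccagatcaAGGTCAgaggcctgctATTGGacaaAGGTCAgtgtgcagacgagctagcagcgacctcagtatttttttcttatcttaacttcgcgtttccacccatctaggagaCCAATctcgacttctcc
Gnmt: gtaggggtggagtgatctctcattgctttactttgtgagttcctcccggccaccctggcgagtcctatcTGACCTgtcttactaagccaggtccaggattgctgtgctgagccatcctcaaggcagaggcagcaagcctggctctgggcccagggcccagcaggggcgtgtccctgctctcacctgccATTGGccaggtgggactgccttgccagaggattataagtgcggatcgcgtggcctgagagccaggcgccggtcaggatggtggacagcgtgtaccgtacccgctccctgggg
The Bhmt window held AGGTCA 3 times, of which the nearer pair begin 72 and 47 bases before the start, and CCAAT 2 times. The Gnmt window held AGGTCA and CCAAT once each. Of 32851 promoters of the same length, 16.3% held AGGTCA at least once, 0.18% held it 3 or more times, and 37.4% held CCAAT. The glucocorticoid receptor half-site TGTTCT was in 19.0% of promoters and the HNF1 half-site GTTAAT in 7.1%. The C/EBP word TTGCNNAA was in 10.8% and the E-box CACGTG in 7.2%. The GC box GGGCGG was in 35.7% and the TATA box TATAAA in 13.6%. No matches overlap each other in these windows, and no binding was measured.

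The 9 enzymes were abundant, with the same 4, Gnmt, Bhmt, Mat1a and Ahcy, at the top of every group in an order that varied. Per kilobase of the principal transcript, Gnmt was highest in chow WT livers at 1730 ± 139 CPM per kilobase (SD, n = 3), followed by Bhmt at 790 ± 159, Ahcy at 659 ± 32.3, Mat1a at 595 ± 65.4, Pemt at 311 ± 33.4, Cth at 181 ± 15.3, Nnmt at 139 ± 4.72, Cbs at 62.6 ± 8.4 and Shmt1 at 47.0 ± 5.83. In that order Bhmt and Ahcy overlapped, as did Ahcy and Mat1a, whereas all other neighbours were separate. In HFCF WT livers Bhmt (1446 ± 321 CPM per kilobase) took the place above Gnmt (990 ± 314), although the single livers of these genes overlapped. Gnmt remained highest on HFCF in livers labelled HuRHep-/-, at 1140 ± 82.0 against 922 ± 140 CPM per kilobase for Bhmt, and there they did not overlap. Mat1a, below Ahcy in chow WT, lay above it in the other 3 groups, and in chow livers labelled HuRHep-/- it stood just above Bhmt at 749 ± 87.9 CPM per kilobase, where these 2 overlapped. Pemt was the fifth in every group, and Shmt1 and Cbs, which overlapped, swapped in HFCF WT. Dividing by all merged exons instead moved Bhmt from the second to the fourth place over the 12 livers, with Gnmt still first. Together the 9 transcripts made up 0.881% of counts in chow WT, 0.895% in chow HuRHep-/-, 0.916% in HFCF WT and 0.769% in HFCF HuRHep-/-.

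**Figure D1:**
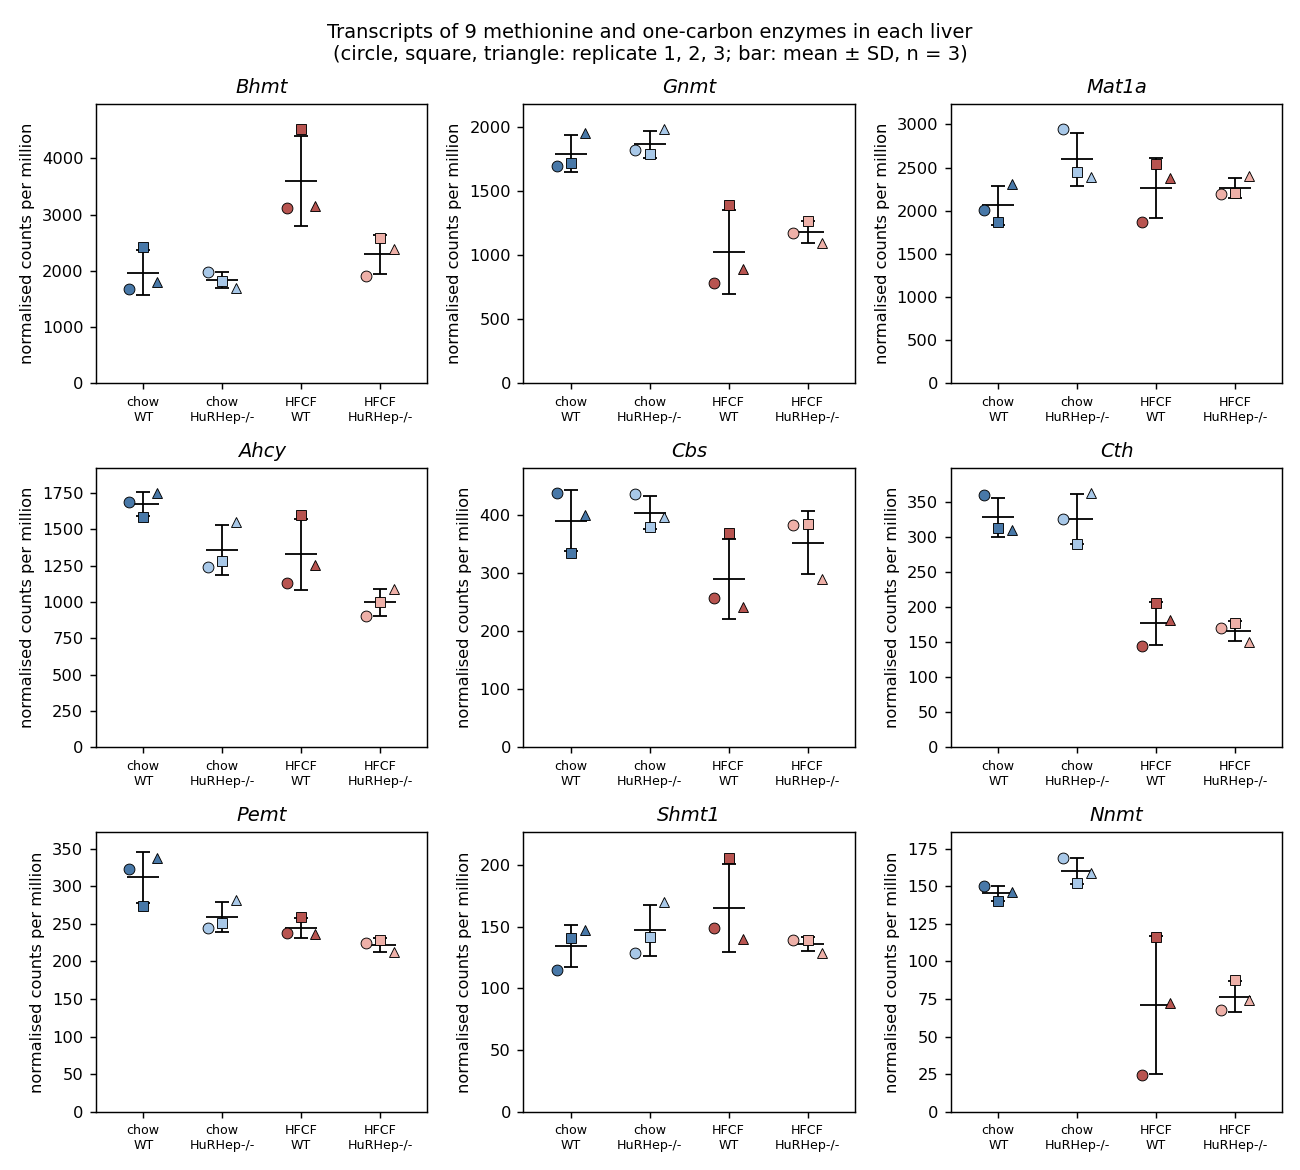
Normalised CPM (vertical axes, each starting at 0) of the 9 enzyme transcripts in each of the 12 livers, by group, with the mean and SD of 3 livers. Cth and Gnmt sat lower in both HFCF groups than in both chow groups, Bhmt was highest in the HFCF WT livers, and the replicate 2 square topped the HFCF WT group in every panel.

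The first question was whether the labelled loss of HuR in hepatocytes went with a change of these transcripts on either diet. Within a diet no enzyme passed: 0 of 9 had an adjusted p of at most 0.05 on chow and 0 of 9 on HFCF (limma), against 4.22% of 13526 genes tested on chow and 6.84% of 14295 on HFCF. Those shares rest on 571 and 978 genes, which became 9 without chow HuRHep-/- 2 and 28 without HFCF HuRHep-/- 1. At an unadjusted p under 0.05 there were 3 enzymes on chow and 2 on HFCF, beside 23.5% and 29.5% of all genes. With both diets in one model 2 of 9 passed, Ahcy and Pemt, both lower, against 17.6% of 14535 genes in either direction and 9.34% lower. The median log2 difference over the 9 was 0.06 on chow, -0.09 on HFCF and -0.04 over both diets, beside medians of all genes tested of 0.0054, -0.0011 and 0.015.

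Ahcy, which removes S-adenosylhomocysteine, was the clearest. It stood at 1690, 1586 and 1748 CPM in chow WT and at 1238, 1285 and 1553 CPM in livers labelled HuRHep-/-, and on HFCF at 1131, 1599 and 1253 CPM against 906, 1003 and 1091 CPM. Every liver labelled HuRHep-/- lay below every WT liver of its diet. Over both diets Ahcy fell by 0.35 on the log2 scale (SE 0.09, adjusted p = 0.0217), with estimates of -0.30 ± 0.11 on chow (adjusted p = 0.146) and -0.41 ± 0.14 on HFCF (adjusted p = 0.112). The call over both diets held without any 1 of the 12 livers (adjusted p from 0.0116 to 0.0491) and relative to hepatocyte markers, at -0.28 (adjusted p = 0.013). Of the 31-base words of its principal transcript, 79.4% also occur in other genes, foremost in the retrogene Gm4737, to which the authors' counting assigned between 16425 and 25917 reads per library beside 36361 to 53483 for Ahcy itself. The split of reads between these copies is uncertain. With the counts of both summed the difference over both diets was -0.33 (adjusted p = 0.0324).

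Pemt, which makes phosphatidylcholine by methylating phosphatidylethanolamine, stood at 323, 274 and 338 CPM in chow WT and at 244, 251 and 281 CPM in livers labelled HuRHep-/-. On HFCF it stood at 238, 259 and 236 CPM in WT and at 224, 229 and 212 CPM in livers labelled HuRHep-/-. The chow groups overlapped and the HFCF groups did not. Over both diets Pemt fell by 0.21 (SE 0.06, adjusted p = 0.0386), a call that was lost without chow WT 1 or 3, chow HuRHep-/- 1 or 2, HFCF WT 1 or 2, or HFCF HuRHep-/- 3, with adjusted p from 0.0502 to 0.0876 and differences from -0.22 to -0.17. It was also lost with the replicate number as a block (adjusted p = 0.0561), and relative to hepatocyte markers, where the difference was -0.14 (adjusted p = 0.156).

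Bhmt, the betaine-using branch of homocysteine remethylation, gave the widest genotype difference on HFCF. It stood at 3115, 4522 and 3162 CPM in HFCF WT and at 1907, 2585 and 2392 CPM in livers labelled HuRHep-/-. These groups did not overlap, and the difference was -0.65 ± 0.19 with a 95% interval from -1.10 to -0.21 and an adjusted p of 0.0776. With the replicate number as a block the adjusted p was 0.0443 at the same difference, although the labels do not say what a number shares. On chow the values were 1675, 2419 and 1808 CPM in WT and 1977, 1823 and 1694 CPM in livers labelled HuRHep-/-, a difference of -0.08 ± 0.15 (adjusted p = 0.781), and these overlapped.

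Mat1a stood at 2012, 1865 and 2310 CPM in chow WT and at 2947, 2449 and 2394 CPM in chow livers labelled HuRHep-/-, without overlap, with a difference of 0.34 ± 0.12 and an adjusted p of 0.159. On HFCF the groups had means of 2263 ± 349 and 2265 ± 116 CPM (SD, n = 3), and the 95% interval of the log2 difference ran from -0.32 to 0.31, with a sign that turned with the scaling. Gnmt, which consumes surplus S-adenosylmethionine, differed by 0.07 ± 0.10 on chow (adjusted p = 0.714) and by 0.23 ± 0.20 on HFCF (adjusted p = 0.482). Without HFCF WT 2, however, the HFCF difference of Gnmt was 0.47 with an adjusted p of 0.045. Neither enzyme of the transsulfuration pair passed by genotype. Cth differed by -0.00 on chow, with an interval from -0.23 to 0.22, and by -0.09 on HFCF, with an interval from -0.40 to 0.22. Cbs differed by 0.06 ± 0.11 on chow and 0.28 ± 0.18 on HFCF, with adjusted p of 0.756 and 0.332. Shmt1 differed by 0.13 ± 0.12 on chow and by -0.28 ± 0.14 on HFCF, where its groups did not overlap (adjusted p = 0.229), and by -0.11 on HFCF without HFCF WT 2. Nnmt differed by 0.14 ± 0.06 on chow, without overlap (adjusted p = 0.213), and by 0.35 ± 0.50 on HFCF, which was -0.27 without HFCF WT 1 and 0.84 without HFCF WT 2.

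In all, the genotype groups did not overlap for 3 of 9 enzymes on chow and for 4 of 9 on HFCF, beside 28.2% and 35.9% of all genes tested. All 14 Kupffer cell and macrophage markers had higher estimates in livers labelled HuRHep-/- on both diets, although 0 of 14 passed on chow and 1 of 14 on HFCF, and their sum ran from 246 to 308 CPM in chow WT against 313 to 459 CPM in chow HuRHep-/-, and from 335 to 599 CPM in HFCF WT against 582 to 816 CPM in HFCF HuRHep-/-, where the sums overlapped. Hepatocyte markers summed to 102371 to 124690 CPM in chow WT and 86092 to 94704 CPM in chow HuRHep-/-, and to 74920 to 81866 CPM against 66931 to 73891 CPM on HFCF. Such a sum weights markers by their abundance. The single markers went both ways. On chow their median log2 difference was -0.06, 4 of 11 had higher estimates, and the 1 that passed was higher. On HFCF the median was -0.05, 3 of 11 had higher estimates, and 1 passed lower. Cholangiocyte markers summed to 39.3 to 88.6 CPM in HFCF WT and 134 to 245 CPM in HFCF HuRHep-/-, where 6 of 6 tested had higher estimates, 2 passed and the median was 1.41. On HFCF 9 of 10 stellate cell and 9 of 10 lymphocyte markers also had higher estimates and none passed. Of 20 acute-phase genes, made by hepatocytes in inflammation, 9 passed on chow, 8 of them higher, with a median of 0.62, and 2 passed on HFCF, with a median of 0.26. In the model over both diets, 9 of 14 Kupffer cell and macrophage markers passed, all higher, with a median of 0.56, beside 17.6% of all genes. There 9 of 20 acute-phase genes passed, 8 higher and 1 lower, and 3 of 11 hepatocyte markers, 1 higher and 2 lower. In bulk tissue fewer cells of a type and less RNA per cell cannot be told apart. Their part in the genotype differences was not tested.

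**Figure D2:**
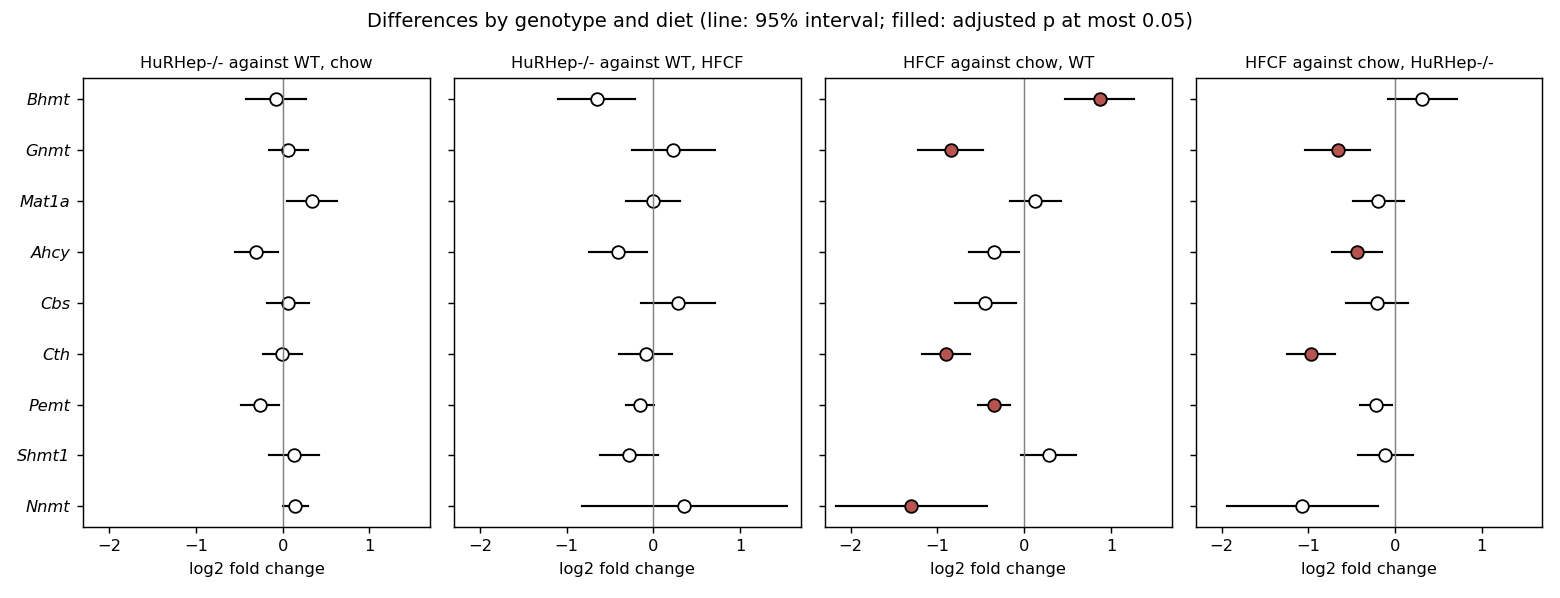
Log2 fold changes (horizontal axes) of the 9 enzymes by genotype within each diet and by diet within each genotype, with 95% intervals, filled where the adjusted p was at most 0.05. No enzyme was filled for genotype, 5 were filled for diet in WT and 3 for diet in livers labelled HuRHep-/-.

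The second question was how the transcripts differed between HFCF and chow. The authors deposited one table per diet, so diet and table cannot be told apart. In WT livers 5 of 9 enzymes passed, against 24.2% of 14535 genes. Cth, Gnmt, Nnmt and Pemt were lower (12.8% of all genes were lower) and Bhmt was higher (11.3% were higher). In livers labelled HuRHep-/- 3 of 9 passed, Cth, Gnmt and Ahcy, all lower, against 38.9% of genes in either direction and 19.1% lower. By the study's rule for differentially expressed genes, which also asks for a fold change of at least 1.5, the counts were 4 of 9 in WT beside 9.41% of all genes and 2 of 9 in livers labelled HuRHep-/- beside 19.1%. The median of the 9 log2 differences was -0.35 in WT and -0.22 in livers labelled HuRHep-/-.

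Cth, the last step of transsulfuration, which releases cysteine, fell in both genotypes. It stood at 361, 314 and 311 CPM in chow WT and at 145, 206 and 182 CPM in HFCF WT, and at 326, 291 and 363 CPM against 171, 178 and 151 CPM in livers labelled HuRHep-/-. No HFCF liver reached any chow liver. The difference was -0.90 ± 0.13 in WT (adjusted p = 0.00099) and -0.97 ± 0.13 in livers labelled HuRHep-/- (adjusted p = 0.00037). Cbs, the step before it, went from a mean of 390 ± 52.3 to 289 ± 69.1 CPM in WT and from 404 ± 28.7 to 352 ± 53.5 CPM in livers labelled HuRHep-/- (SD, n = 3), and neither difference passed (adjusted p = 0.0642 and 0.333). In WT, 3 of 9 enzymes passed without chow WT 1, without chow WT 3 or without HFCF WT 3, and 7 passed without HFCF WT 2. Calls over all genes moved the same way, from 3514 to 1990, 2304, 2100 and 3965. Without HFCF WT 2 or without chow WT 2, Cbs did pass in WT, at -0.64 (adjusted p = 0.00763) and -0.56 (adjusted p = 0.0407).

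Gnmt fell as well. It stood at 1696, 1720 and 1957 CPM in chow WT and at 786, 1395 and 893 CPM in HFCF WT, a difference of -0.85 ± 0.17 (adjusted p = 0.0053). In livers labelled HuRHep-/- it stood at 1822, 1792 and 1985 CPM on chow and at 1172, 1268 and 1098 CPM on HFCF, a difference of -0.66 ± 0.17 (adjusted p = 0.0105). The diets did not overlap in either genotype. Bhmt rose in WT livers from a mean of 1967 ± 396 to 3600 ± 799 CPM (SD, n = 3), by 0.87 ± 0.18 (adjusted p = 0.00616), without overlap. In livers labelled HuRHep-/- it went from 1831 ± 142 to 2295 ± 349 CPM, and this difference of 0.32 ± 0.18 did not pass (adjusted p = 0.184). A retrogene copy that shares most of the 68.5% of Bhmt words found elsewhere drew only 158 to 569 reads per library, beside 50907 to 148140 for Bhmt.

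Nnmt, which methylates nicotinamide, varied most of the 9 between HFCF WT livers. It stood at 150, 140 and 146 CPM in chow WT and at 24.3, 116 and 72.3 CPM in HFCF WT. The lowest of these, HFCF WT 1, shaped the estimate: the difference was -1.30 ± 0.40 (adjusted p = 0.0342) with it and -0.67 without it. The call was lost without any 1 of the chow WT livers or without HFCF WT 3 (adjusted p from 0.0541 to 0.0918). In livers labelled HuRHep-/- Nnmt stood at 169, 152 and 159 CPM on chow and at 67.9, 87.8 and 74.0 CPM on HFCF, without overlap. That difference was -1.07 ± 0.40 with an adjusted p of 0.0514. Because the model shares 1 estimate of spread, this call changed when WT livers were left out, with adjusted p of 0.000789 without HFCF WT 1 and 0.0135 without HFCF WT 2.

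Ahcy fell with HFCF in livers labelled HuRHep-/- by 0.44 (SE 0.13, adjusted p = 0.0222), a call lost without chow HuRHep-/- 3, HFCF HuRHep-/- 1 or HFCF HuRHep-/- 2 (adjusted p from 0.0543 to 0.0881). In WT the difference was -0.35 ± 0.13 with an adjusted p of 0.0762, and -0.49 with an adjusted p of 0.0112 without HFCF WT 2. Pemt fell in WT by 0.35 (SE 0.09, adjusted p = 0.0138), a call lost without chow WT 1 or 3 or HFCF WT 3 (adjusted p from 0.0516 to 0.0575). In livers labelled HuRHep-/- Pemt differed by -0.22 ± 0.09 (adjusted p = 0.0607), and passed without chow WT 2 (adjusted p = 0.0275). Mat1a differed by 0.13 ± 0.14 in WT and by -0.19 ± 0.14 in livers labelled HuRHep-/-, and Shmt1 by 0.28 ± 0.15 and -0.11 ± 0.15, with adjusted p from 0.176 to 0.576 for these 4. The diets did not overlap for 5 of 9 enzymes in each genotype, beside 37.6% of all genes in WT and 54.6% in livers labelled HuRHep-/-.

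Hepatocyte markers were lower on HFCF too: 6 of 11 passed lower and 1 higher in WT, with a median log2 difference of -0.51, and 7 of 11 passed lower in livers labelled HuRHep-/-, with a median of -0.46. Stellate cell markers had 3 of 10 passing in WT and 10 of 10 in livers labelled HuRHep-/-, all higher. Kupffer cell and macrophage markers had 6 of 14 passing in WT and 10 of 14 in livers labelled HuRHep-/-, all higher, and cholangiocyte markers 0 of 6 and 6 of 6, the latter all higher with a median of 1.40. Of the acute-phase genes 6 of 20 passed lower and 3 higher in WT, and 10 lower and 1 higher in livers labelled HuRHep-/-, where the median was -0.70. Their part in the diet differences was not tested. The enzymes were therefore also expressed relative to the mean of the 11 hepatocyte markers, a scale chosen after seeing the data, which moved the median of all genes by diet to 0.44 in WT and 0.48 in livers labelled HuRHep-/-. The markers were Alb, Ttr, Apoa1, Apoh, Fgb, Serpinc1, Hnf4a, Cps1, Pck1, Glul and Cyp2e1. Their lowest diet difference in WT, -0.86, was also the lowest of the acute-phase genes. Diet changes of the markers themselves move this scale. On it Cth was still lower, by -0.47 in WT (adjusted p = 0.00482) and -0.48 in livers labelled HuRHep-/- (adjusted p = 0.00304), and Gnmt was lower in WT at -0.42 (adjusted p = 0.0232) but not past the threshold in livers labelled HuRHep-/- at -0.18 (adjusted p = 0.267). Bhmt was higher in both, at 1.30 (adjusted p = 0.000308) and 0.80 (adjusted p = 0.00242). Ahcy stood at 0.08 and 0.04 and Pemt at 0.08 in WT, so their direction turned, and Nnmt stood at -0.88 (adjusted p = 0.0504) and -0.59 (adjusted p = 0.155). Mat1a and Shmt1 passed higher in WT on this scale, at 0.56 (adjusted p = 0.0035) and 0.71 (adjusted p = 0.00138), above the median gene at 0.44. Pemt and Shmt1 passed with estimates above 0 in livers labelled HuRHep-/-, at 0.26 (adjusted p = 0.0131) and 0.37 (adjusted p = 0.0254). Both lay below the median gene there, at 0.48. Marker scaling called 5 enzymes in WT beside 7577 of all genes, and 4 in livers labelled HuRHep-/- beside 9054.

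**Figure D3:**
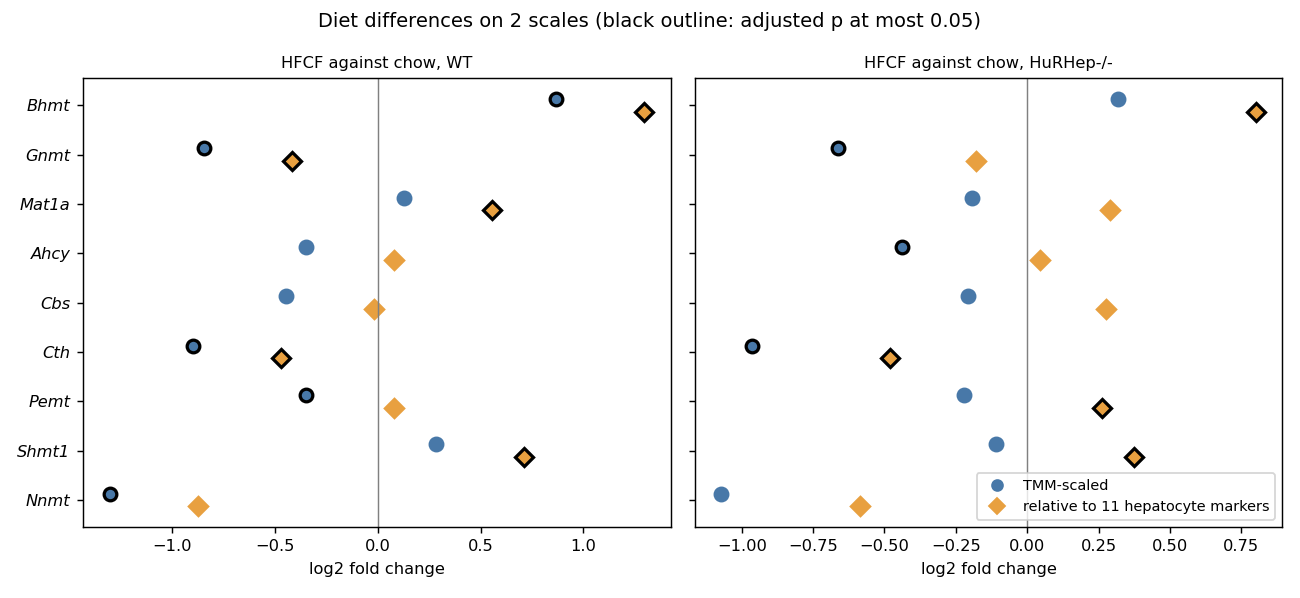
Log2 fold changes of HFCF against chow (horizontal axes) for the 9 enzymes in WT and in livers labelled HuRHep-/-, as scaled by TMM (circles) and relative to 11 hepatocyte markers (diamonds), with a black outline where the adjusted p was at most 0.05. Cth stayed outlined and below 0 on both scales in both genotypes, whereas Ahcy and Pemt crossed 0.

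Whether the diet difference itself depended on the label was tested as an interaction. None of 9 enzymes passed and 0% of 14535 genes did (limma), with 0 of 9 enzymes and 2084 genes at an unadjusted p under 0.05. Other settings called 1 gene with voom weights, 1 with no filter on low counts, 10 relative to hepatocyte markers, 2 without chow WT 2, 1 without chow HuRHep-/- 3 and 41 without HFCF WT 3, none of them among the 9. Bhmt came closest, at -0.55 ± 0.25 with an interval from -1.11 to 0.0053 (unadjusted p = 0.0519, adjusted p = 0.353). Its call for diet in WT alone does not show that the genotypes differ.

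The enzymes deviated together most in HFCF WT 1 and 2. After group means were removed, 35 of 36 pairs of enzymes had a correlation above 0 over the 12 libraries, with a median r of 0.51. These r share library scaling and carry no p. Pairs of other genes were not counted beside them, and no r was taken without those livers. HFCF WT 2 was the highest of its group for 9 of 9 enzymes, and the 9 averaged 0.37 above their group mean on the log2 scale there, while HFCF WT 1 averaged 0.32 below it. Hepatocyte markers deviated the same way in these livers, by 0.15 and -0.11. On HFCF, HuRHep-/- 2 was the highest of its group for 7 of 9, with a mean deviation of 0.09 for the enzymes and -0.0052 for hepatocyte markers. Outside HFCF WT 1 and 2 the mean deviation of the 9 ran only from -0.07 to 0.09. Signs were mixed there: in chow WT 2, Bhmt stood at 0.32 and Cbs at -0.22.

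**Figure D4:**
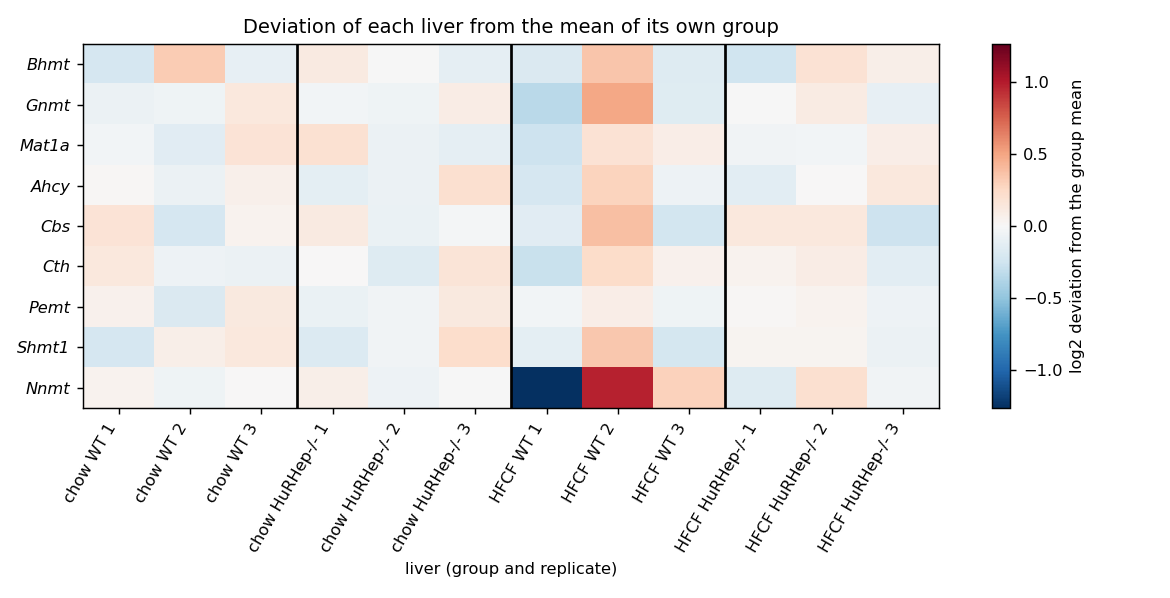
Log2 deviation of each liver (columns, 3 per group) from the mean of its own group for the 9 enzymes (rows), red above and blue below. The column of HFCF WT 2 is red throughout, with a mean of 0.37 over the 9, and the strongest blue cell is Nnmt in HFCF WT 1.

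Paired enzymes were then compared within a library, as log2 ratios per kilobase that do not depend on scaling. In chow WT livers the adult hepatic Mat1a exceeded Mat2a, the form of other tissues, 21.7-fold, and Pemt exceeded Pcyt1a, the rate-limiting enzyme of the alternative choline route, 24.1-fold. The Bhmt to Mtr ratio was 3540, with Mtr at only 1.45 to 2.59 CPM over the 12 livers. Cytosolic Shmt1 was below mitochondrial Shmt2, at a ratio of 0.553, Cth exceeded Cbs 2.90-fold, and Gnmt exceeded Nnmt 12.4-fold. The level of Cth to Cbs rests on length, as their principal transcripts have 1815 and 6226 bases. In CPM, Cth (mean 329) lay below Cbs (mean 390) in chow WT.

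None of the 6 ratios passed for either factor after adjustment over 12 tests (exact permutation within strata, 400 relabelings, two-sided), a design in which a lone ratio could not pass, since its smallest adjusted p is 0.06. The Cth to Cbs ratio came closest: its log2 value was 1.54 ± 0.14 in chow WT and 1.08 ± 0.24 in HFCF WT (SD, n = 3), and 1.47 ± 0.16 and 0.71 ± 0.11 in livers labelled HuRHep-/-. The diet difference was -0.61 with an exact permutation p of 0.005, the smallest these relabelings can give, and an adjusted p of 0.06. By genotype the Shmt1 to Shmt2 ratio differed by -0.19 (exact permutation p = 0.03, adjusted p = 0.12). Without chow HuRHep-/- 3, 3 ratios passed for genotype (Bhmt to Mtr at -0.48, Shmt1 to Shmt2 at -0.23 and Cth to Cbs at -0.27) and 1 for diet (Cth to Cbs at -0.56), each with an adjusted p of 0.03. Within 1 diet, 3 against 3 livers cannot give a two-sided exact permutation p below 0.1.

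The Pemt to Pcyt1a ratio moved in opposite directions. Its log2 value was 4.59 ± 0.09 in chow WT, 4.09 ± 0.03 in chow livers labelled HuRHep-/-, 4.09 ± 0.03 in HFCF WT and 4.22 ± 0.04 in HFCF livers labelled HuRHep-/- (SD, n = 3). Averaged over the diets the genotype difference was -0.19 (exact permutation p = 0.105, adjusted p = 0.158), but it was -0.51 on chow and 0.13 on HFCF, without overlap on either. Pcyt1a stood at 61.6, 58.2 and 64.8 CPM in chow WT and 69.9, 70.6 and 77.2 CPM in chow livers labelled HuRHep-/-, then at 65.1, 73.8 and 66.8 CPM in HFCF WT and 55.9, 59.6 and 55.3 CPM in HFCF livers labelled HuRHep-/-. The order of Pcyt1a turned between diets, while the estimates of Pemt were lower under the label on both. Pemt passed on neither diet (limma, adjusted p = 0.148 on chow and 0.171 on HFCF), and its chow groups overlapped.

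**Figure D5:**
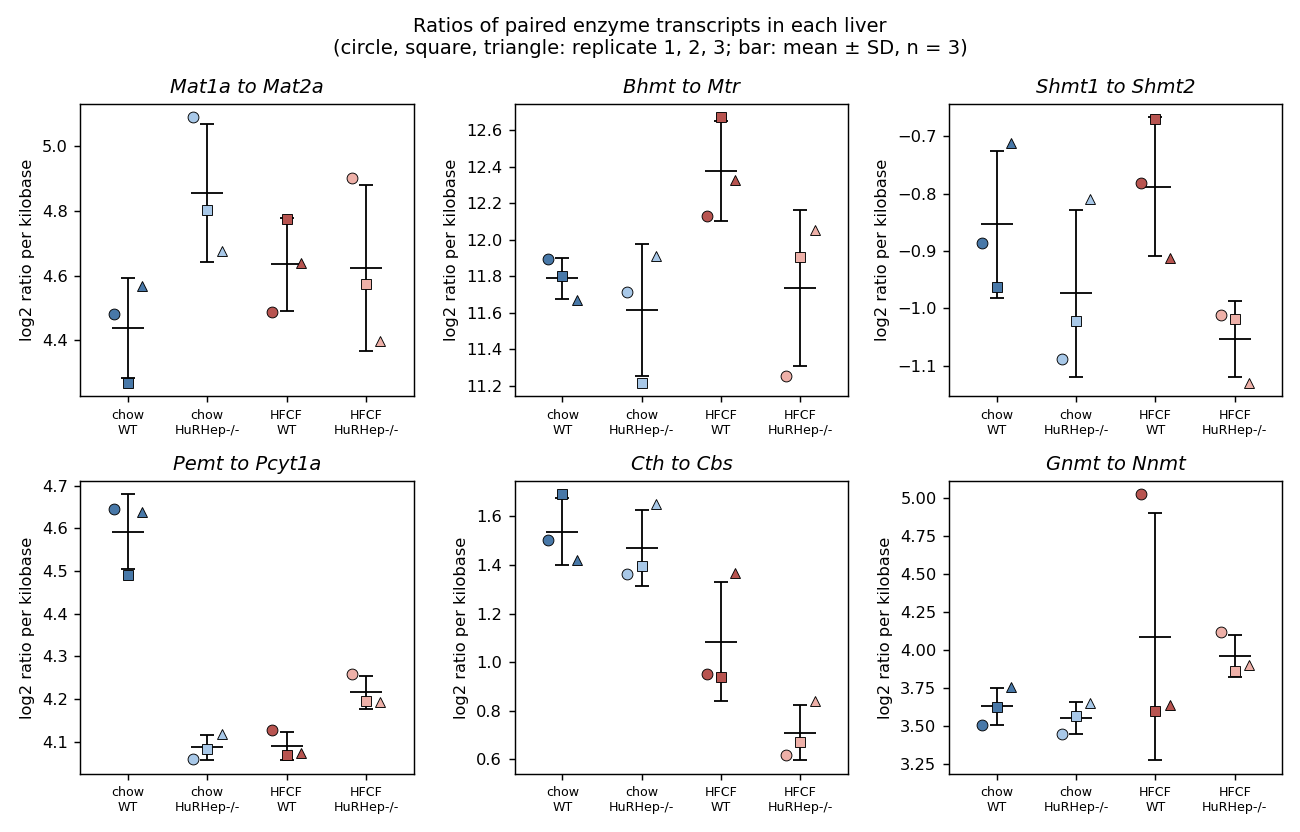
Log2 ratios per kilobase (vertical axes) of 6 pairs of enzyme transcripts in each of the 12 livers, with the mean and SD of 3 livers. In the Pemt to Pcyt1a panel the chow WT livers lie between 4.49 and 4.65 and all other livers between 4.06 and 4.26.

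Of the wider pathway, 99 other one-carbon genes were listed. By genotype 4 of 95 tested passed on chow (1 higher), where 4.22% of all genes did, and 7 of 96 on HFCF (all lower), where 6.84% did. In either direction both shares were near the background. By direction, 564 of 14295 genes passed lower on HFCF and 414 higher, so the 7 calls leaned lower than those of all genes, which was not tested. Over both diets 25 of 96 passed, 8 higher and 17 lower, beside 17.6% of all genes in either direction and 9.34% lower. Among 15 genes of choline, betaine and phosphatidylcholine, a list singled out after its values were seen, 6 passed, all lower, with a list median of -0.03 beside 0.015 for all genes. Its estimates ran from -0.60 to 1.01. The folate cycle had 6 of 25 passing, 3 higher and 3 lower, and the other small-molecule methyltransferases 4 of 10, 1 higher and 3 lower. Chpt1, the last step of phosphatidylcholine synthesis from CDP-choline, fell by 0.46 on chow (adjusted p = 0.044) and by 0.76 on HFCF (adjusted p = 0.0172). Inmt, an indolethylamine methyltransferase, fell by 0.91 on chow (adjusted p = 0.0171) and by 0.57 on HFCF (adjusted p = 0.0245). Chdh, which makes betaine from choline, fell by 0.42 on HFCF (adjusted p = 0.0189), as did Nadk2, a mitochondrial NAD kinase, by 0.38 (adjusted p = 0.0267). On chow Bhmt2, a relative of Bhmt that uses S-methylmethionine, rose by 0.34 (adjusted p = 0.0249), and Mthfs, which recycles 5-formyltetrahydrofolate, fell by 0.44 (adjusted p = 0.0252). Amt, of the glycine cleavage system, fell by 0.55 over both diets (adjusted p = 0.0047). Within a diet these calls were lost without single libraries: on chow Inmt without WT 1 or 3 or HuRHep-/- 2, Bhmt2 and Chpt1 without those or HuRHep-/- 1, and Mthfs without any liver but WT 2 (adjusted p from 0.0532 to 0.165), and on HFCF all 4 without WT 1 or any liver labelled HuRHep-/- (adjusted p from 0.0614 to 0.118).

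By diet 21 of 96 passed in WT, 9 higher and 12 lower, where 24.2% of all genes passed, and 38 of 96 in livers labelled HuRHep-/-, 10 higher and 28 lower, where 38.9% did. In either direction both shares were near the background. By direction, in livers labelled HuRHep-/-, the 28 lower stood beside 19.1% of all genes lower and the 10 higher beside 2870 of 14535. The calls of the list thus leaned lower than those of all genes, a lean that was not tested. Aox3, an aldehyde oxidase that handles nicotinamide products, fell by 0.84 in WT (adjusted p = 0.00061) and by 1.40 in livers labelled HuRHep-/- (adjusted p = 3.3e-05). Hnmt, histamine N-methyltransferase, rose by 0.76 in both (adjusted p = 0.00074 and 0.00035). Acmsd, a branch point of NAD synthesis from tryptophan, fell in WT by 1.26 (adjusted p = 0.0015), as did Ethe1, a sulfur dioxygenase of the cysteine and sulfide route, by 0.56 (adjusted p = 0.0051), though relative to hepatocyte markers Ethe1 stood at -0.13 (adjusted p = 0.427). In livers labelled HuRHep-/- Ahcyl1, a relative of Ahcy, fell by 0.40 (adjusted p = 0.00053) and Nadk2 fell by 0.41 (adjusted p = 0.00064), and both turned to 0.08 relative to hepatocyte markers. Other one-carbon genes passing in the interaction numbered 0 of 96.

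Across all genes tested, the closest patterns by Pearson correlation of log2 CPM over the 12 libraries, which share scaling and group structure, were Cops2 (r = 0.98) and Mrpl47 (0.98) for Cth, Ndufv3 (0.98) and Ndufs8 (0.98) for Pemt, Ttc36 (0.98) and Agxt (0.97) for Gnmt, Ahsa2 (0.97) and Ccdc163 (0.97) for Ahcy, and Trappc12 (0.97) and Adck1 (0.95) for Bhmt. For the rest they were Emg1 (0.94) and Cct5 (0.93) for Nnmt, Abcb6 (0.92) and Zdhhc5 (0.88) for Shmt1, Stoml2 (0.91) and Gm4673 (0.91) for Cbs, and 9030624J02Rik (0.89) and D10Jhu81e (0.88) for Mat1a.

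The enzymes lie on 7 chromosomes of GRCm38 in the GENCODE annotation. Ahcy spans chr2:155059310-155074497, Cth chr3:157894248-157925077, Nnmt chr9:48591877-48605153, Pemt chr11:59970614-60046489, Shmt1 chr11:60788104-60811718, Bhmt chr13:93616675-93637961, Mat1a chr14:41105035-41124412, Cbs chr17:31608894-31637238 and Gnmt chr17:46725664-46729168. Counts were over the exons of each gene, and no member shared exon bases with another gene on its own strand.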

How the data were processed

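Liver RNA of 12 male mice was sequenced from stranded libraries, with 3 livers per group named in the labels, and p-values measure the spread between these livers. Per the published methods, the authors mapped reads with CLC Genomics Workbench to RefSeq GRCm38.p6, with local alignment on the reverse strand. Per the labels, the deposited columns hold raw read counts per gene, in 1 table per diet. These were written as text with comma separators and 2 decimals, and no value was other than whole. The type recorded for these columns allowed no count model, so log2 CPM were fitted with limma 3.58.1 (R 4.3.3), with the trended prior, a pseudocount of 0.5 counts, TMM scaling (trims of 0.3 and 0.05) and a filter of at least 10 counts per library of median depth in 3 libraries and 15 in all. Genotype was tested within each table; genotype over both diets, diet and interaction were tested on genes listed in both. Adjustment was by Benjamini-Hochberg over all genes tested, at 0.05. The scripts were tested on simulated data.

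The members and gene lists were chosen with earlier results of these data known. Named were the 9 members, Elavl1, ratio partners, the 4 other one-carbon genes of smallest p among those past the threshold in each comparison, and the 2 genes most alike each member; Gm4737 was named after its values were seen. Deviations of same-numbered WT and HuRHep-/- libraries correlated at r = 0.28, 0.34 and 0.19 on HFCF (10208 genes). On chow these were 0.0057, 0.23 and 0.073. Between the diets of a genotype, same-numbered libraries ran from -0.084 to 0.36. Nothing in the labels says what a number shares. Alternatives were RLE and upper-quartile scaling, other filters, a pseudocount of 2, voom weights, a replicate block, a fit on all 12 livers and leaving out each library. Counts at this depth carry little sampling error for the 9 members, the lowest of which had 921 reads in its lowest library. Cell markers used were hepatocyte, Kupffer cell and macrophage, sinusoidal endothelial, stellate, cholangiocyte, lymphocyte and neutrophil lists.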

Additional observations from a re-analysis of the deposited data

Results flagged for a closer look

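The Pemt to Pcyt1a ratio was set apart because the genotype groups did not overlap on either diet and lay in opposite order. The genotype difference on HFCF minus that on chow was 0.63 on the log2 scale. Relabelling genotype within each diet gave an exact permutation p of 0.005 (two-sided, the smallest that 400 relabelings can give, adjusted p = 0.03 over the 6 ratios), but this was run after the order had been seen, and its null is no genotype effect on either diet, so it is no test of the interaction alone. All 3 chow livers labelled HuRHep-/- lay below all 3 chow WT livers, and all 3 HFCF livers labelled HuRHep-/- lay above all 3 HFCF WT livers. Neither gene passed the interaction across all genes in limma, with -0.50 ± 0.10 for Pcyt1a (adjusted p = 0.102) and 0.13 ± 0.12 for Pemt (adjusted p = 0.667). Kupffer cell and macrophage markers had higher estimates under the label on both diets (14 of 14 on each, of which 0 passed on chow and 1 on HFCF). In the model over both diets 9 of the 14 passed, all higher. Their part in the ratio was not tested. Single outlying livers were not tested in groups of 3.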

How the results depend on the processing

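With the replicate number as a block, the members passing were 0 for genotype on chow, 1 on HFCF (Bhmt), 1 over both diets (Ahcy; Pemt at an adjusted p of 0.0561), 5 for diet in WT, 4 in livers labelled HuRHep-/- (Nnmt added at an adjusted p of 0.0445) and 0 for the interaction, beside 340, 1341, 2409, 3578, 5713 and 0 of all genes. What a number shares is not known, so the block is not known to be a pairing. For genotype on HFCF it changed no call of a named gene but that of Bhmt. For genotype on chow the block took Bhmt2 and Mthfs to adjusted p of 0.0534 and 0.0501.

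The median of all genes moved by over 0.1 only under hepatocyte-marker scaling, a scale added after the data were seen. There, 1 member passed for genotype over both diets. Genotype differences of the opposite sign were 0.030 (chow) and 0.021 (HFCF) for Cth and 0.11 for Mat1a (HFCF). Diet differences of the opposite sign were 0.079 for Ahcy and 0.079 for Pemt in WT, and in livers labelled HuRHep-/- 0.29 for Mat1a, 0.045 for Ahcy, 0.28 for Cbs, 0.26 for Pemt, 0.37 for Shmt1 and 0.085 for Ahcyl1 and 0.078 for Nadk2. The other one-carbon genes lost by genotype were Bhmt2 and Mthfs on chow, Chpt1, Chdh, Inmt and Nadk2 on HFCF, and Chdh over both diets, with adjusted p from 0.0582 to 0.158. Ethe1 was lost for diet in WT (adjusted p = 0.427), and Elavl1 was lost within each diet (adjusted p = 0.063 on chow and 0.0639 on HFCF). The differences of these calls were not all smaller on that scale, at 0.44 on chow and 0.50 on HFCF for Elavl1, 0.37 for Bhmt2 and -0.40 for Mthfs.

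The HFCF genotype difference of Mat1a was 0.0014 with RLE scaling, 0.048 with upper-quartile scaling, 0.011 with at least 10 counts in every library and 0.012 in a fit on all 12 livers. That fit called 1 member by genotype on HFCF (Bhmt, adjusted p = 0.0428) and took Bhmt2 on chow to 0.0504. Chpt1 on chow reached 0.0508 with no filter on low counts. No member met the study's fold-change rule for genotype over both diets (0). On the HFCF livers alone the Pemt to Pcyt1a ratio differed by 0.13 with genotype, and in livers labelled HuRHep-/- by 0.13 with diet.

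Leaving out each library in turn, genotype differences that changed sign ran on chow from -0.19 to 0.081 for Bhmt, from -0.041 to 0.15 for Cbs and from -0.084 to 0.076 for Cth, and on HFCF from -0.12 to 0.085 for Mat1a, from -0.22 to 0.022 for Cth and from -0.27 to 0.84 for Nnmt. Members passing ran from 0 to 1 for genotype on HFCF, from 1 to 2 over both diets, from 3 to 7 for diet in WT and from 2 to 4 for diet in livers labelled HuRHep-/-, and ratios from 0 to 3 for genotype and from 0 to 1 for diet. Calls over all genes were fragile by genotype: 571 on chow became 9 without chow HuRHep-/- 2, 88 to 136 without chow WT 1 or 3 or HuRHep-/- 1, 251 relative to hepatocyte markers, 340 with the block and 961 in the fit on all 12 livers. On HFCF 978 became 28 to 116 without WT 1 or any liver labelled HuRHep-/-, 281 relative to hepatocyte markers and 1614 in the fit on all 12 livers. By diet, the marker scale called 7577 genes in WT against 3514 and 9054 against 5650 in livers labelled HuRHep-/-. The cause of these changes was not tested. Within these alternatives Cth passed for diet in both genotypes every time, as did Ahcy for genotype over both diets except by the fold-change rule. Where 1 library was left out, the spread was pooled over the remaining livers.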
